A study of Mus musculus with 2 samples.

Results

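The interferon-induced genes Ifit1, Ifit2, Ifit3 and Ifit3b were followed across macrophages, T cells and tumour-like cells of mouse lung tumours. They are 4 of the 34097 genes in the count matrices, and were taken by symbol (Ifit1, ENSMUSG00000034459; Ifit2, ENSMUSG00000045932; Ifit3, ENSMUSG00000074896; Ifit3b, ENSMUSG00000062488). The genes were selected on their levels by class and their knockdown-to-control ratios, which earlier summaries of these libraries had shown, so both are descriptions here and carry no test. The symbols list 2 further relatives, Ifit1bl1 and Ifit1bl2, and both are given beside the 4.

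The study profiled single cells of tumours grown from the mouse lung carcinoma line LLC, labelled as lung cancer xenografts, to look at the tumour immune environment after knockdown of Gfpt2, an enzyme of hexosamine synthesis. There were 2 libraries, 1 per group: a control tumour labelled NC, and a tumour treated with an shRNA against Gfpt2, labelled SH. The labels give no host strain, age, promoter, clone number or pooling, and do not say which cells carried the shRNA. With 1 library per group there is no spread between replicates, no p-value is given, and a difference between the libraries cannot be told apart from a difference between these 2 tumours.

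IFIT proteins are built from tetratricopeptide repeats and bind RNA. Ifit1 recognises foreign RNA whose cap lacks ribose methylation and blocks its translation, Ifit2 binds RNA and shapes which transcripts are translated, and Ifit3 joins complexes with its relatives; Ifit3b is a near-copy of Ifit3. The genes are transcribed at very low levels until type I or type III interferon, or direct signalling from nucleic acid sensors through interferon regulatory factors, acts on their promoters, which makes them a common readout of interferon exposure in tumours.

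The response element bound by these factors was searched as GAAA, any 2 bases and GAAA again (on the other strand TTTC, any 2 bases, TTTC) in RefSeq promoter windows of 300 bases, 250 before and 50 after each start, on GRCm38.p6. All 6 family symbols had a window. The stretches around the matches are shown because the members differ there; capitals mark the match, and every printed base lies upstream of the RefSeq start.
Ifit1 (chr19:34640765-34640833, + strand): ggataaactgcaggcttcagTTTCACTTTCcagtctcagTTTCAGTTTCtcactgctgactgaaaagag
Ifit3 (chr19:34583353-34583436, + strand): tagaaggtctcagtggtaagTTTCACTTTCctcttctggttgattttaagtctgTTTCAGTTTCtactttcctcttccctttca
Ifit3b (chr19:34607749-34607832, + strand): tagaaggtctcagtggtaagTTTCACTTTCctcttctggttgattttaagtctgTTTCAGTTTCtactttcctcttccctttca
Ifit2, first window (chr19:34550594-34550693, + strand): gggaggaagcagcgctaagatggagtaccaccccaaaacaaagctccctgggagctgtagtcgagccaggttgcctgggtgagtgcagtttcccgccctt
Ifit1bl1, first window (chr19:34602043-34602092, - strand): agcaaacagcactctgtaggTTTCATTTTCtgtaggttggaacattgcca

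Ifit1, Ifit3 and Ifit3b each held 2 matches. Their first bases lay 104 and 85 bases before the start in Ifit1, 156 and 122 in Ifit3, and 188 and 154 in Ifit3b. The 84 printed bases of Ifit3 and Ifit3b are identical. Neither of the 2 Ifit2 windows held these letters. Among all 32851 windows, 3.44% held at least 1 match and 0.225% at least 2. The 2 matches of Ifit1 also lie in the first window of Ifit1bl2, whose start is on the opposite strand of the same stretch. A match is a string of letters, not a measured binding site.

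Ifit3 and Ifit3b are hard to count apart. Their annotated transcripts were 97.8% identical over 1700 aligned columns, and 35.1% of the 90-base windows of Ifit3 also occur in Ifit3b. In the last 400 bases of the transcripts, 8.68% of Ifit3 windows occurred in Ifit3b and 0% the other way. Values of each therefore remain uncertain by the reads that could not be assigned to either. No 90-base window was shared between Ifit1, Ifit2 and Ifit3.

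The control library held 11977 cell barcodes and 165824226 UMIs, the knockdown library 12853 and 138402860. After quality and doublet filters 10660 and 11450 cells remained. The libraries shared 37 barcodes. The file headers name Cell Ranger 6.1.0 and the submitters' processing notes name 3.1.0. In tumour-like cells Gfpt2 stood at 2.03 CPM (210 UMIs) in the control library and 0.624 CPM (55 UMIs) in the knockdown library, with a log2 ratio of -1.70, in the direction of the label.

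Cells were gated on raw UMIs. Macrophages had at least 10 C1qa, C1qb and C1qc UMIs per 10000, T cells at least 2 Cd3d, Cd3e and Cd3g UMIs, and tumour-like cells no Ptprc UMI, fewer than 5 Lyz2 UMIs per 10000 and at least 5000 UMIs. The macrophage gate took 3994 control and 4567 knockdown cells, with medians of 5379 and 3945 UMIs. The T cell gate took 795 and 670 cells (medians of 2801 and 2668 UMIs), and the tumour-like gate 4984 and 5218 (18700 and 14736). A cell could pass more than 1 gate: 126 control and 135 knockdown cells passed both the macrophage and the T cell gate, which is 15.8% and 20.1% of the T cells. No gate took 1041 control and 1181 knockdown cells.

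The gates were checked against markers they had not used. All 8 macrophage markers and all 8 T cell markers exceeded 10 CPM in their own gate in both libraries. In the tumour-like gate 4 of 8 markers did: Hmga2 reached 221 and 219 CPM, while the epithelial genes Krt8, at 0.0869 and 0.0908 CPM, and Epcam, at 0.0483 and 0.0454 CPM, were near 0. Xist, transcribed only from an inactive X chromosome, was at 2.81 and 4.05 CPM in tumour-like cells against 493 and 389.9 CPM in macrophages. T cells carried Hmga2 too, at 126 CPM (control) and 77.5 CPM (knockdown). Hmga2 in macrophages was 32.9 and 88.2 CPM, and 11.4% of control and 21.1% of knockdown macrophages had an Hmga2 or Prrx1 UMI.

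Levels below are CPM, the UMIs of a gene over all UMIs of the cells in a gate, scaled to a total of 1000000. Ranges after log2 ratios are the lowest and the highest that the 95% exact Poisson intervals of both counts allow, and cover counting error only.

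Ifit2 was the member whose level differed most between classes. In control macrophages Ifit2 stood at 185 CPM (4391 UMIs), in control T cells at 55.9 CPM (245 UMIs) and in control tumour-like cells at 28.8 CPM (2983 UMIs). The knockdown library gave 332, 98.2 and 41.6 CPM in the same order. Macrophages therefore exceeded tumour-like cells by a log2 ratio of 2.68 (control, range 2.59 to 2.78) and 3.0 (knockdown, 2.92 to 3.08), and the intervals of the 3 classes did not overlap in either. Macrophage RNA was read in the other gates from the C1q gene closest to its macrophage level. In tumour-like cells it stood at 0.640% and 0.933% of its macrophage level, which would bring 1.18 and 3.09 CPM of Ifit2. In T cells the same share was 8.45% and 14.3%, equal to 15.6 and 47.5 CPM of Ifit2.

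Ifit1, the sensor of unmethylated caps, was almost level across classes of the control library when cells of all depths were pooled, at 159.5 CPM in macrophages, 152 CPM in T cells and 151 CPM in tumour-like cells. The neighbours macrophages and T cells, and T cells and tumour-like cells, differed by less than counting error. In the knockdown library Ifit1 was at 247, 233 and 171 CPM, and tumour-like cells lay below both others. The macrophage to tumour-like log2 ratio went from 0.07 (0.01 to 0.14) to 0.53 (0.46 to 0.59).

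Ifit3, the partner protein, was ordered differently from Ifit2. Tumour-like cells held the highest level in both libraries, 179 CPM in the control and 226 in the knockdown. Macrophages followed at 152 and 216 CPM and T cells at 123 and 185 CPM. The macrophage to tumour-like log2 ratio of Ifit3 was -0.23 (-0.30 to -0.17) in the control library; in the knockdown library it was -0.06, with a range that ends just below 0.

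Ifit3b stood at 39.6, 39.7 and 35.9 CPM in control macrophages, T cells and tumour-like cells, with overlapping intervals for T cells and either neighbour. In the knockdown library it was at 74.7, 58.6 and 43.1 CPM, and macrophages exceeded tumour-like cells by a log2 ratio of 0.79 (0.67 to 0.91).

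The make-up of the family sum differed accordingly. Ifit2 gave 34.4% of the summed Ifit UMIs in control macrophages, 15.1% in control T cells and 7.28% in control tumour-like cells, and 38.2%, 17.1% and 8.62% in the knockdown library. Ifit3 gave 45.3% of the sum in control tumour-like cells and 28.4% in control macrophages. These shares compare each gene with itself across classes, since UMI levels of different genes also depend on capture.

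**Figure D1:**
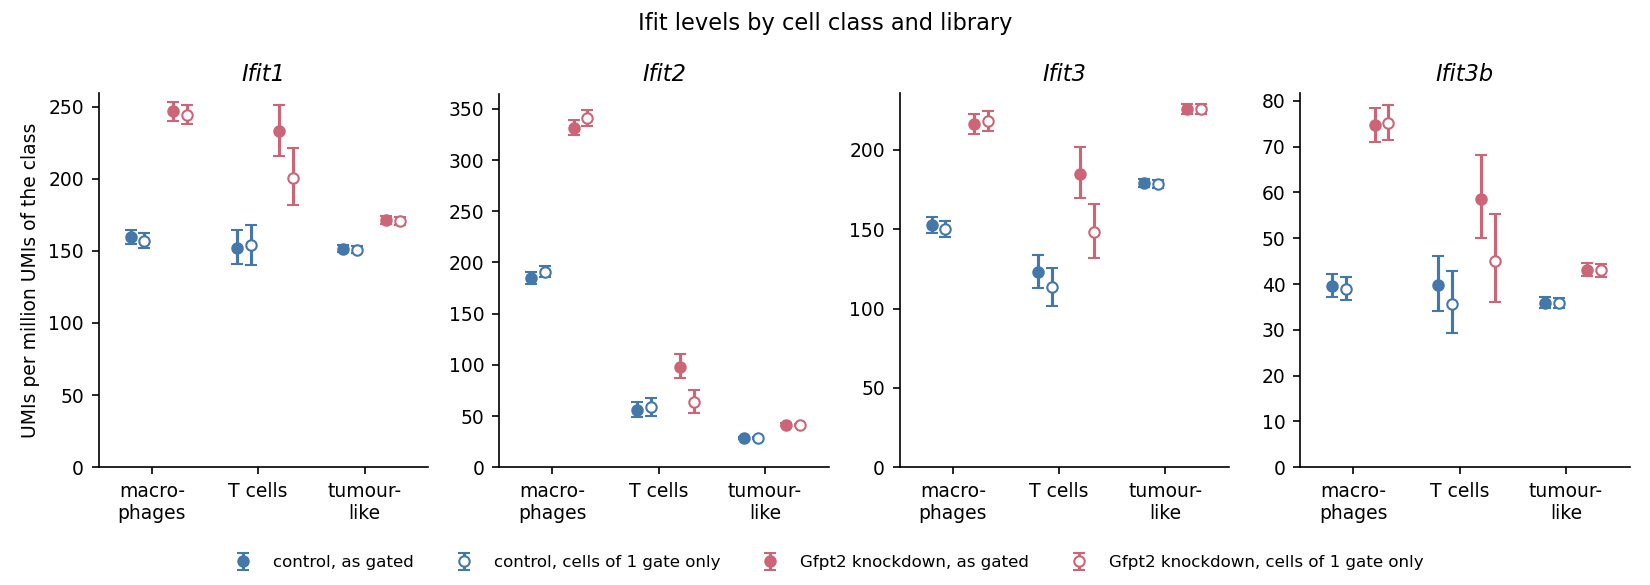
Level of each Ifit gene, in CPM, in macrophages, T cells and tumour-like cells of the control (blue) and the Gfpt2 knockdown library (red), each panel with its own vertical scale from 0. Filled points are cells as gated, open points are cells of 1 gate only, and bars are exact 95% Poisson intervals. Ifit2 is at 185 and 332 CPM in macrophages against 28.8 and 41.6 CPM in tumour-like cells, and the T cell value of the knockdown library is lower among cells of 1 gate.

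The summed family was higher in the knockdown library in all 3 gates. In macrophages it was 536 CPM (control) and 869.6 CPM (knockdown), a log2 ratio of 0.70 (0.65 to 0.74). In T cells it was 371 and 575 CPM, a ratio of 0.63 (0.49 to 0.77), and in tumour-like cells 395 and 482 CPM, a ratio of 0.29 (0.26 to 0.31). Whether the ratios differ between classes was not tested.

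In macrophages the log2 ratios were 0.63 for Ifit1 (0.54 to 0.71), 0.84 for Ifit2 (0.77 to 0.92), 0.51 for Ifit3 (0.42 to 0.59) and 0.91 for Ifit3b (0.75 to 1.08). Thus 3 of the 4 members were at least 1.5-fold higher, where 10.6% of the 10763 compared genes were (genes with at least 100 UMIs in 1 library); 1.28% were as much lower. Scaling by TMM, which places the bulk of genes at no change, lowered every macrophage log2 ratio by 0.14. The members then stood at 0.49, 0.70, 0.37 and 0.77, with 2 of 4 past 1.5-fold against 8.17% of genes, and the share of calls in the higher direction went from 89.2% to 75.4%.

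Tumour RNA also moved with the macrophage comparison, as the Hmga2 values above show. Among macrophages without an Hmga2 or Prrx1 UMI, a subset chosen after seeing the data, the family was at 540.4 and 965 CPM, a log2 ratio of 0.84. Ifit2 stood there at 197 and 402 CPM (1.02), Ifit1 had a ratio of 0.75, Ifit3 0.57 and Ifit3b 1.05, and 3.9% of 9916 compared genes were at least 1.5-fold higher. The ratios of all 4 members were larger in this subset. Its median depths were 5321 and 3766 UMIs, against 5379 and 3945 UMIs in the whole gate. The parts of tumour RNA and of depth in these ratios were not tested.

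In T cells the ratios were 0.61 for Ifit1 (0.39 to 0.84), 0.81 for Ifit2 (0.46 to 1.17), 0.59 for Ifit3 (0.34 to 0.84) and 0.56 for Ifit3b (0.12 to 1.00), so that 3 of 4 members were at least 1.5-fold higher, against 3.05% of 6164 compared genes; 1.75% were as much lower. Under TMM 1 of 4 was, against 1.72% of genes, and without doublet removal 1 of 4, against 1.23% of genes. Under TMM the higher direction went from 63.5% to 36.8% of all calls. Macrophage RNA differed in the same direction, at 8.45% and 14.3% of the macrophage C1q level. Among T cells outside the other gates it was at 1.21% and 1.27%. There Ifit2 stood at 58.4 CPM (182 UMIs) (control) and 63.7 CPM (126 UMIs) (knockdown), a log2 ratio of 0.12 (-0.35 to 0.59), and the family at 361 and 457 CPM, a ratio of 0.34 (0.16 to 0.52). None of the 4 members was then past 1.5-fold, against 1.98% of 5005 genes. Hmga2 in these T cells was at 142 CPM (control) and 62.7 CPM (knockdown), and the part of tumour RNA in the T cell values was not tested. T cells without a C1q UMI, a subset chosen after seeing the data, numbered 277 and 281. Their family ratio was 0.50 (0.23 to 0.78). By member it was 0.48 for Ifit1 (0.05 to 0.90), 0.61 for Ifit2 (-0.07 to 1.29), 0.50 for Ifit3 (-0.02 to 1.03) and 0.46 for Ifit3b (-0.39 to 1.31). The part of macrophage RNA in the T cell ratios was not tested.

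In tumour-like cells Ifit2 had the highest ratio of the members, 0.53 (0.43 to 0.63), from 28.8 to 41.6 CPM. Ifit3 had 0.34 (0.29 to 0.38), Ifit3b 0.26 (0.17 to 0.36) and Ifit1 0.18 (0.13 to 0.22). Each range lies above 0, and 0 of 4 members reached 1.5-fold, where 2.29% of 12371 genes did; 0.711% were as much lower. Among all compared genes the median log2 ratio was 0.04 in tumour-like cells, 0.05 in T cells and 0.10 in macrophages.

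**Figure D2:**
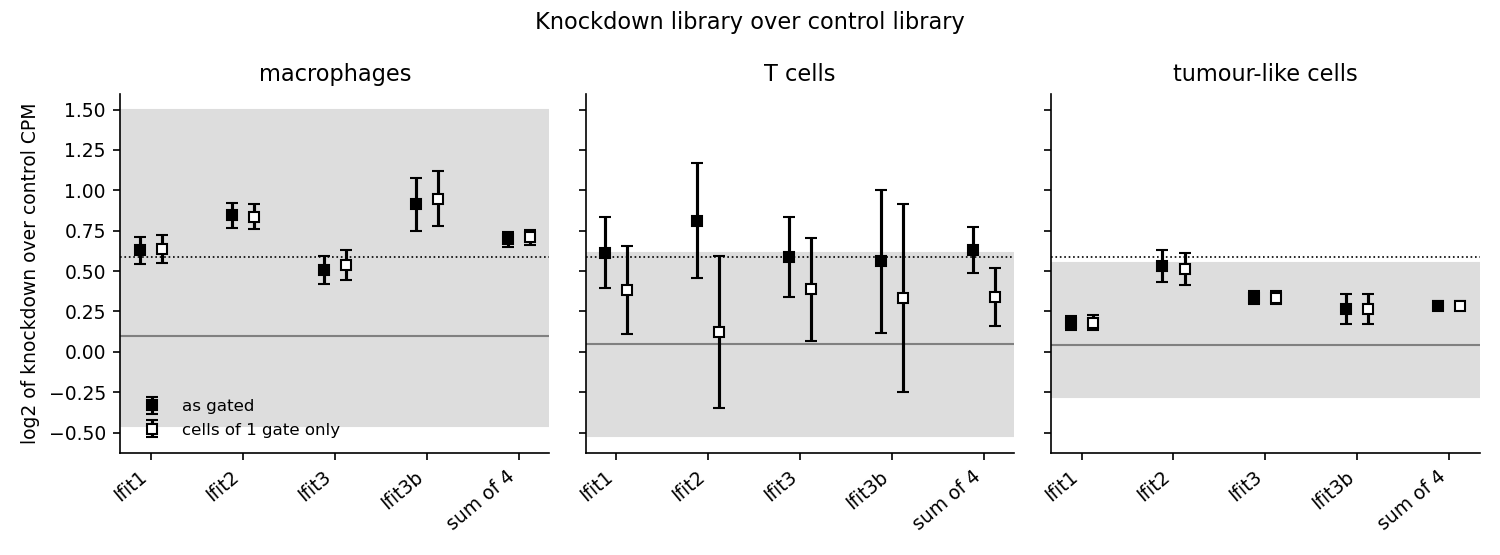
Log2 ratio of knockdown over control CPM for each Ifit gene and their sum in 3 gates, with filled squares for cells as gated, open squares for cells of 1 gate only and bars for the range that counting error allows. Grey bands span the central 95% of all compared genes, grey lines their median, and dotted lines 1.5-fold. In macrophages all members lie inside the band, whose upper end is at 1.5, and in T cells the ratio of Ifit2 goes from 0.81 to 0.12 among cells of 1 gate. T cells without a C1q UMI, where the Ifit2 ratio is 0.61 (-0.07 to 1.29), are not drawn.

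Depth per cell moved with the Ifit level. Among cells of 1 gate only, control tumour-like cells with 5000 to 10000 UMIs held the family at 589.5 CPM, those with 10000 to 20000 at 521 CPM and those above 20000 at 318 CPM. The knockdown library gave 629, 549 and 389 CPM in the same strata, so that shallower cells were higher in both. Cells above 20000 UMIs were 44.2% of control and 28.4% of knockdown tumour-like cells. Within strata the log2 ratios of knockdown over control were 0.09 (0.00 to 0.18), 0.07 (0.03 to 0.12) and 0.29 (0.25 to 0.33), against 0.29 pooled.

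Member by member, Ifit2 in tumour-like cells had ratios of 0.20 (-0.09 to 0.51), 0.39 (0.24 to 0.54) and 0.39 (0.23 to 0.54) across the strata. Ifit1 had ratios of -0.003 (-0.15 to 0.14), -0.09 (-0.16 to -0.02) and 0.22 (0.15 to 0.29), so its direction turned in the middle stratum. Ifit3 had 0.17, 0.15 and 0.34. Ifit3b had 0.0079 (-0.30 to 0.32), 0.08 (-0.07 to 0.22) and 0.29 (0.16 to 0.43), so that its pooled ratio of 0.26 was met only above 20000 UMIs.

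Macrophages were higher in the knockdown library in every stratum. From 1000 to 2500 UMIs the family stood at 703.5 and 1194 CPM, from 2500 to 5000 at 630.4 and 989 CPM, from 5000 to 10000 at 563 and 847 CPM and from 10000 to 20000 at 357 and 738 CPM. The log2 ratios were 0.76 (0.57 to 0.96), 0.65 (0.55 to 0.74), 0.59 (0.52 to 0.66) and 1.05 (0.92 to 1.18). All 4 members had ranges above 0 in all 4 strata. In T cells the 2 strata that could be compared gave -0.07 (-0.38 to 0.24) and 0.26 (-0.08 to 0.60), neither distinguishable from 0 at this depth.

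The order of the classes also moved with depth. Between 5000 and 10000 UMIs control macrophages held Ifit1 at 164 CPM against 235 CPM in control tumour-like cells, a log2 ratio of macrophages over tumour-like cells of -0.52 (-0.67 to -0.37), and between 10000 and 20000 UMIs 110 against 208 CPM, a ratio of -0.92. Knockdown macrophages and tumour-like cells were close, with ratios of 0.0215 (-0.10 to 0.15) and 0.15 (0.01 to 0.30). The ranges do not make depth equal: control macrophages averaged 6894 and 12636 UMIs per cell in them and control tumour-like cells 7872 and 15014. In the same ranges Ifit3 in macrophages was further below its tumour-like level than in the pooled cells, at -0.73 and -1.04 in the control and -0.43 and -0.22 in the knockdown library. Ifit3b lay below it in the control library (-0.37 and -0.89) and above it in the knockdown library (0.31 and 0.55). Ifit2 remained higher in macrophages in both strata, by 1.97 and 1.57 in the control and 2.46 and 2.24 in the knockdown library, less than the pooled 2.68 and 3.0.

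**Figure D3:**
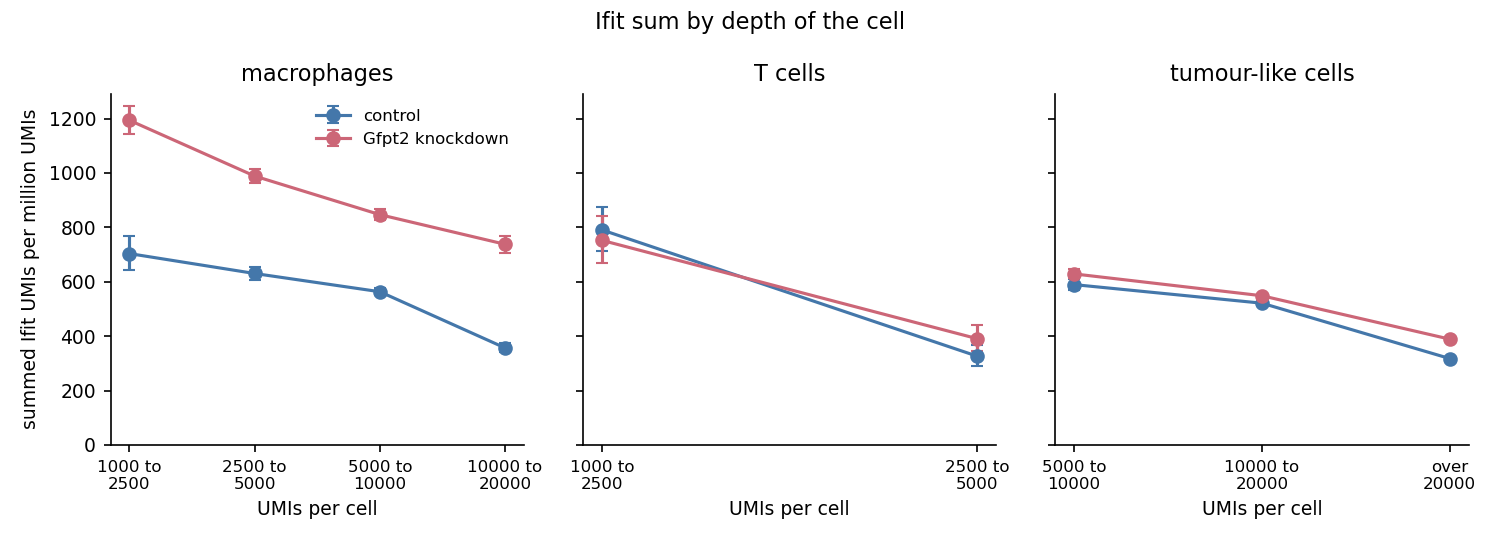
Summed Ifit CPM in cells of 1 gate, by UMIs per cell, in the control (blue) and the Gfpt2 knockdown library (red), with exact 95% Poisson intervals. Deeper cells hold a lower level; macrophages of the knockdown library lie above the control at each depth, while tumour-like cells differ by 0.09, 0.07 and 0.29 on the log2 scale.

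Cells just inside and just outside the gates were read once. Ifit2 stood at 82.2 CPM in 185 control cells with 10 to 15 C1q UMIs per 10000 and at 63.4 CPM in 384 cells with 5 to 10. In the knockdown library the values were 76.9 and 64.4 CPM. All 4 lie well under the 185 and 332 CPM of the whole macrophage gate. The other members had no such gap in common. Just inside the gate of the control library Ifit1 stood at 271 CPM, Ifit3 at 233 CPM and Ifit3b at 59.3 CPM, each above its level in the whole gate, and in the knockdown library they stood at 204, 210.5 and 55.9 CPM, each below it. Just outside, the control values were 166, 156 and 43.9 CPM, and knockdown Ifit3 stood at 218 CPM against 216 CPM in the whole gate. At the depth floor of the tumour-like gate, cells of 5000 to 6000 UMIs held Ifit2 at 48.4 CPM (control) and 75.4 CPM (knockdown). Cells of 4000 to 5000 UMIs, otherwise gated alike, held it at 26.9 and 91.5 CPM. The whole tumour-like gate held 28.8 and 41.6 CPM. Ifit2 at the T cell gate was 55.2 and 84.3 CPM just inside, and 46.4 and 72.8 CPM just outside.

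Finer gates were drawn among cells of at most 1 class to see where in each class the UMIs lay. Macrophages with at least 1 UMI of Ifnb1, the type I interferon gene, numbered 231 (5.99% of macrophages of 1 gate) among control and 464 (10.6%) among knockdown cells. They held the family at 1834 and 1898 CPM, a log2 ratio of 0.05 (-0.04 to 0.14). Macrophages without an Ifnb1 UMI stood at 436 and 729 CPM, a ratio of 0.74 (0.69 to 0.80). For the sum, the difference between the libraries was thus small in cells with an Ifnb1 UMI and present in those without one. The members were not alike in cells with an Ifnb1 UMI. Ifit2 had a ratio of 0.19 (0.05 to 0.33) and Ifit3b 0.25 (-0.08 to 0.58), against -0.01 (-0.22 to 0.21) for Ifit3 and -0.15 (-0.32 to 0.01) for Ifit1. Finding an Ifnb1 UMI also depends on the depth of a cell, and the part of depth in this contrast was not tested. Median depths were 6477 and 4983 UMIs with, and 5309 and 3779 UMIs without an Ifnb1 UMI.

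Ifit2 and Ifit1 were the members furthest apart between these 2 macrophage sets. Control macrophages with an Ifnb1 UMI had Ifit2 at 730.4 CPM against 149 CPM without one, Ifit1 at 625 against 121, Ifit3b at 136 against 31.4 and Ifit3 at 343 against 135. In the knockdown library the pairs were 833 and 269 CPM for Ifit2, 562 and 198 for Ifit1, 162 and 62.6 for Ifit3b and 341 and 200.1 for Ifit3. As a ratio, the gap between the sets was smaller for each member in the knockdown library.

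Cycling macrophages, with at least 3 Mki67 and Top2a UMIs, held the family at 272 and 662 CPM (1.28, range 1.13 to 1.44). Scrublet's own doublet threshold was passed by 25.8% of these knockdown cells and 0% of these control cells, and without them (an alternative chosen after seeing the data) the family stood at 755 CPM in 224 knockdown cells, a ratio of 1.47 (1.31 to 1.64). Every member was higher in the knockdown library: Ifit1 went from 85.0 to 204 CPM and Ifit3 from 83.3 to 204 CPM.

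Tumour-like cells with at least 20 collagen UMIs (Col1a1, Col1a2 and Col3a1) per 10000 carried the highest family level of the tumour-like gates in the control library. It was 712 CPM in 1509 control cells and 682 CPM in 1813 knockdown cells, a log2 ratio of -0.06 (-0.11 to -0.02). Ifit1 there went from 291 to 256 CPM (-0.18, range -0.25 to -0.11), Ifit3 from 302 to 299 CPM, and Ifit2 from 58.1 to 70.8 CPM (0.29, range 0.14 to 0.43). Xist in these cells was at 2.37 and 3.46 CPM, near the 2.81 and 4.05 CPM of all tumour-like cells, and they were 30.4% of control and 35.1% of knockdown tumour-like cells.

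Cycling tumour-like cells were lower, at 248 and 334 CPM (0.43, range 0.38 to 0.48). Their median depths, 26231 and 20235 UMIs, were the highest of the finer gates. Tumour-like cells with at least 2 UMIs of the keratin Krt16, only 165 control and 50 knockdown cells, stood at 304 and 766 CPM (1.33, range 1.16 to 1.51). Of the 856 knockdown UMIs 15.7% lay in 1 cell, and the part of that cell in the ratio was not tested.

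CD8 T cells, with at least 2 Cd8a and Cd8b1 UMIs and no Cd4 UMI, showed little difference: 293 CPM in 333 control and 319.8 CPM in 297 knockdown cells, a log2 ratio of 0.13 (-0.14 to 0.39). CD4 conventional T cells (30 and 21 cells), regulatory T cells (16 and 11) and endothelial cells (12 and 14) were too few to describe. Dendritic cells, with at least 3 UMIs of Flt3, Xcr1, Clec9a and Zbtb46, numbered 32 and 29 and held the family at 724 and 348 CPM (-1.06, range -1.47 to -0.65). A single control dendritic cell carried 33.2% of the 295 control UMIs, and the part of that cell in the ratio was not tested.

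**Figure D4:**
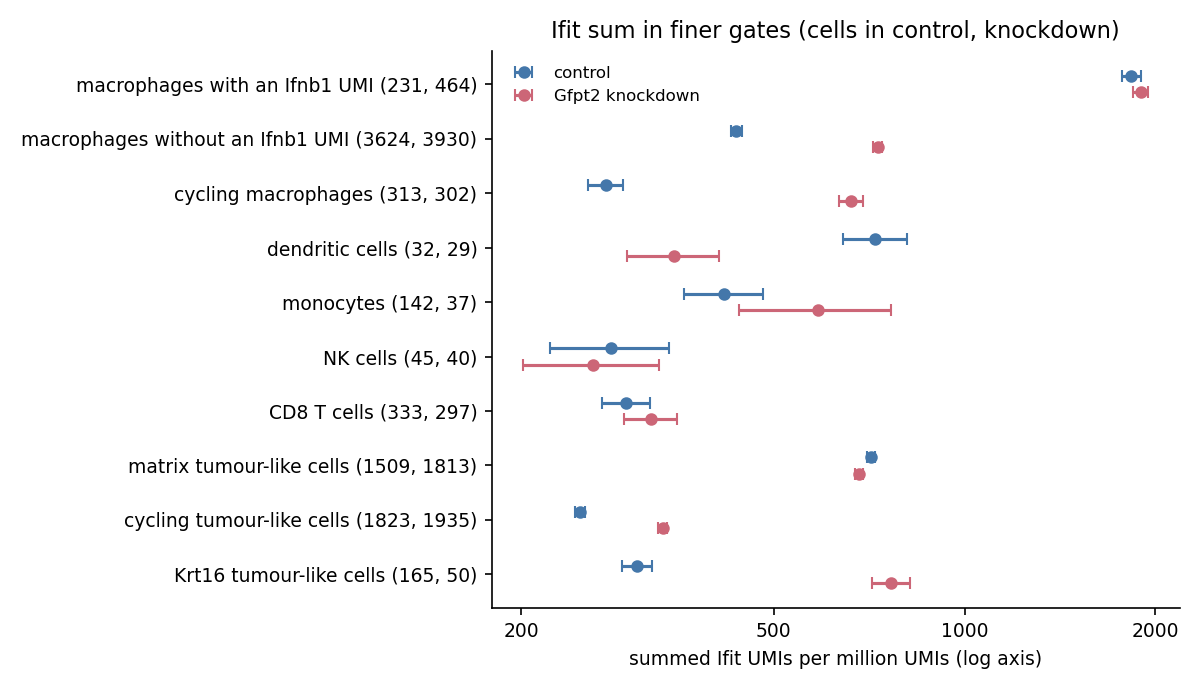
Summed Ifit CPM (log axis) in finer gates of the control (blue) and the Gfpt2 knockdown library (red), with exact 95% Poisson intervals; cell numbers stand beside the names. Macrophages with an Ifnb1 UMI sit at 1834 and 1898 CPM, cycling macrophages are higher in the knockdown library, and matrix tumour-like and dendritic cells are not.

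Single cells were unequal. The tenth of macrophages with the most Ifit UMIs, among cells of 1 gate, held 62.9% of them (control) and 51.9% (knockdown), and for tumour-like cells the shares were 46.6% and 42.6%. These shares also move with depth. Each gated cell was therefore thinned to 2000 UMIs, so that all were read at the same number of UMIs. This left out 604 control and 981 knockdown macrophages, 231 T cells in each library and no tumour-like cell. An Ifit UMI was then found in 37.5% (95% exact binomial interval 35.8 to 39.1) of control and 56.1% (54.5 to 57.8) of knockdown macrophages, 30.7% (26.9 to 34.7) and 36.4% (31.9 to 41.1) of T cells, and 42.4% (41.0 to 43.8) and 48.4% (47.0 to 49.7) of tumour-like cells. Unthinned, the shares were 52.6% and 66.3%, 45.3% and 47.5%, and 84.2% and 88.2%. More macrophages and tumour-like cells thus held a UMI in the knockdown library, while the T cell intervals overlap. Thinning does not even out the mix of shallow and deep cells, which differed between the libraries. The part of that mix in these shares was not tested. No gated class is known to lack Ifit transcription, so no share from free RNA alone could be read.

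By member, thinned macrophages with a UMI went from 17.9% to 28.5% for Ifit1, from 21.0% to 31.4% for Ifit2, from 17.7% to 26.7% for Ifit3 and from 5.69% to 11.3% for Ifit3b. Among thinned T cells as gated Ifit1 was found in 18.4% and 18.7%, and Ifit3 in 13.1% and 19.6%. Among T cells of 1 gate Ifit1 was found in 19.6% (16.1 to 23.4) of 475 control and 15.4% (11.7 to 19.7) of 338 knockdown cells, Ifit3 in 12.8% and 14.2%, and any member in 30.9% and 29.0%, with overlapping intervals throughout. In tumour-like cells Ifit1 went from 23.3% to 24.7% and Ifit3 from 26.3% to 30.6%. Among cells as gated, intervals of the 2 libraries did not overlap for any member in macrophages. They overlapped for every member in T cells, and for Ifit1 and Ifit3b in tumour-like cells.

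The members were found together in the same macrophages. Among thinned control macrophages of 1 gate, Ifit1 was seen in 43.4% (39.7 to 47.3) of the 677 cells with an Ifit2 UMI and in 11.1% (9.94 to 12.4) of the 2626 without one. In the knockdown library the shares were 47.8% and 19.0%. Ifit3b was seen in 16.1% and 3.12% of control macrophages with and without Ifit2, and in 22.5% and 6.08% of knockdown macrophages. With Ifnb1 the pattern was alike: Ifit2 was found in 64.2% (54.9 to 72.7) of the 120 control macrophages with an Ifnb1 UMI and in 18.9% of the others, and in 59.0% and 29.7% in the knockdown library.

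Across unthinned cells of 1 gate, Pearson correlations of log levels between members ran from 0.38 to 0.53 in control and from 0.33 to 0.45 in knockdown macrophages. In tumour-like cells Ifit1 and Ifit3 correlated at 0.69 and 0.63, while Ifit1 and Ifit2 correlated at 0.36 and 0.34. The cells share a library and differ in depth, so these values are descriptions.

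**Figure D5:**
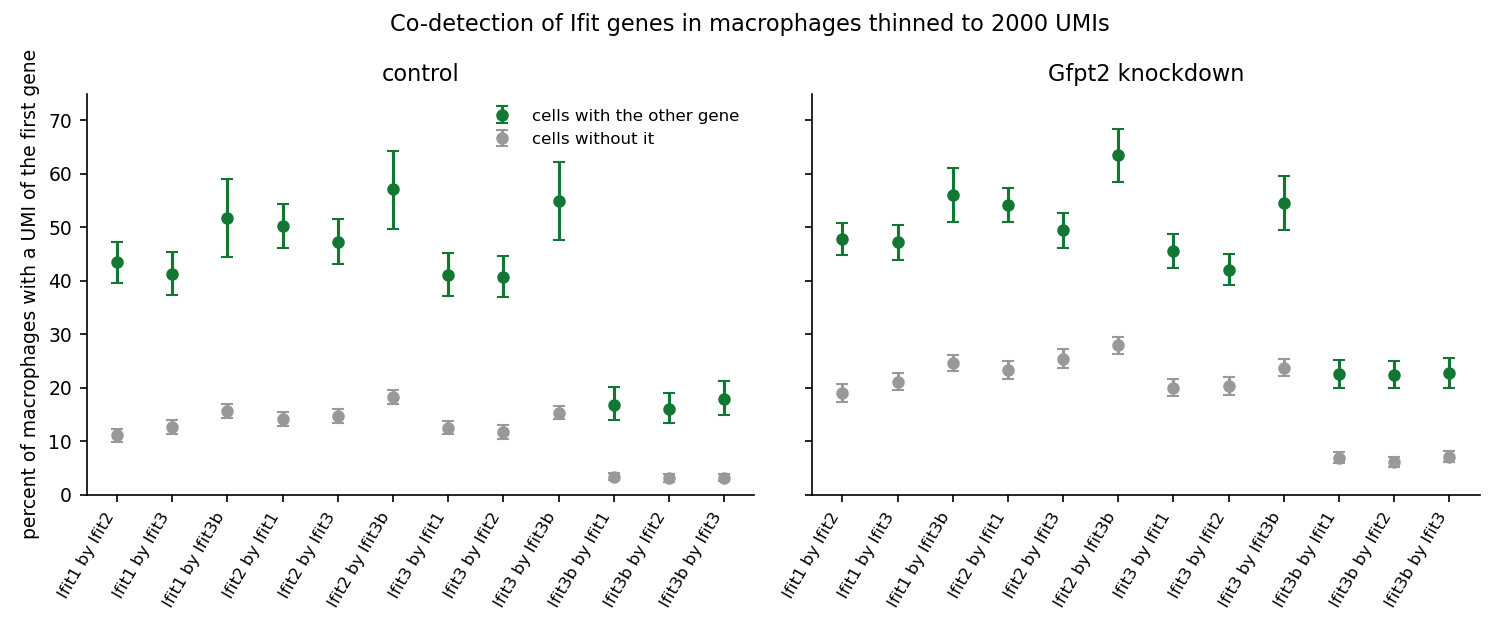
Percent of macrophages of 1 gate, thinned to 2000 UMIs, with a UMI of the first gene among cells with (green) and without (grey) a UMI of the second, in the control (left) and the Gfpt2 knockdown library (right), with 95% exact binomial intervals. Each green point lies above its grey point; Ifit1 by Ifit2 is 43.4% against 11.1% in the control and 47.8% against 19.0% in the knockdown library.

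Of the less abundant relatives, Ifit1bl1 stood at 8.90 and 18.6 CPM in T cells (39 and 53 UMIs), at 3.49 and 6.18 CPM in macrophages and at 0.406 and 0.272 CPM in tumour-like cells. Ifit1bl2 was at 3.49 and 6.69 CPM in macrophages, 3.65 and 4.56 CPM in T cells and 1.26 and 1.62 CPM in tumour-like cells. T cells thus held the highest Ifit1bl1 level in both libraries, while Ifit1bl2 in macrophages and T cells differed by less than counting error.

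Other genes of the pathway were counted from lists of ligands, receptors, sensors, factors and effectors, in the same gates. Among ligands only Ifnb1 and Ifng had enough UMIs in macrophages: Ifnb1 went from 30.1 to 57.2 CPM (0.93, range 0.74 to 1.11) and Ifng from 6.44 to 9.37 CPM (0.54). Among macrophages of 1 gate Ifng had only 29 and 82 UMIs and was not compared, while Ifnb1 had a ratio of 0.92. The receptor and kinase list had 0 of 8 genes past 1.5-fold in macrophages, with a median log2 ratio of 0.02. The transcription factor list had 0 of 9, with a median of 0.01. Sensors had a median of -0.0032 and 1 of 13 genes past the fold, where 10.6% of all compared genes were higher with a median of 0.10. It was Rigi, the sensor of viral RNA ends, at 42.4 and 66.7 CPM (0.66), beside Ifih1, a sensor of long double-stranded RNA, at 320.4 and 454 CPM (0.50).

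Antiviral effectors other than Ifit had 3 of 22 genes past 1.5-fold in macrophages and none lower, a share near the 10.6% of all compared genes. Their median was 0.42 against 0.10 for all compared genes. Those were Mx2, a dynamin-like GTPase, at 58.1 and 97.2 CPM (0.74), Cmpk2, a nucleotide kinase, at 24.4 and 39.1 CPM (0.68), and Isg15, a ubiquitin-like modifier, at 466 and 738 CPM (0.66). Chemokines had 1 of 4 higher, Cxcl11 (0.59), and among macrophages of 1 gate 0 of 4, where 10.4% of all compared genes were. Cxcl9 was lower without passing 1.5-fold, at 443 and 337 CPM (-0.39).

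T cells had 3 of 18 effectors past 1.5-fold, where 3.05% of all compared genes were higher, with a median of 0.31 against 0.05. Oasl1, a regulator of Irf7 translation, went from 30.1 to 80.3 CPM (1.42), Rsad2, the viperin gene, from 99.2 to 175 CPM (0.82) and Isg15 from 360.0 to 572 CPM (0.67). Cxcl9 and Cxcl10, abundant macrophage transcripts, had ratios of 0.83 and 0.87 in the same gate. Among T cells of 1 gate only, 1 of 14 effectors was past 1.5-fold, against 1.98% of genes, with a median of 0.18. There Cxcl9 turned lower, from 32.4 to 16.2 CPM (-1.0, range -1.83 to -0.21), Cxcl10 kept 0.80, and the median of the 3 compared chemokines was -0.25.

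Tumour-like cells had 4 of 22 effectors past 1.5-fold, where 2.29% of all compared genes were higher, with a median of 0.36 against 0.04. Among tumour-like cells of 1 gate 3 of 22 were, against 2.13%. Oas2, a sensor enzyme that activates RNase L, went from 14.2 to 23.8 CPM (0.74), Oasl1 from 8.43 to 13.3 CPM (0.66), Isg15 from 264 to 413 CPM (0.64) and Oas3, a relative of Oas2, from 7.72 to 11.6 CPM (0.59). Their transcription factors had 0 of 9 past the fold, with a median of 0.34, against 0.01 in macrophages. Cxcl10 and Cxcl11 were higher and Ccl5 lower, at 175 and 109 CPM (-0.69).

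Genes whose level most resembled the family were ranked by Pearson correlation of log2(CPM + 1) over 22 points, 11 gates in 2 libraries, among 5384 genes. The 5 closest to the sum were Rtp4 (0.92), Isg15 (0.89), Mx2 (0.87), Cited2 (0.87) and Rnf213 (0.86). Ifit1 was closest to Ifit3b (0.97) and Ifit3 (0.89). For Ifit2 the closest were Mx2 (0.96), Tmod3 (0.96), Chd9 (0.95), Rnd3 (0.94) and Jun (0.94), none of them another Ifit gene. The gates nest in each other and share libraries, so the points are not independent. Over single control macrophages the closest were Isg15 (0.58), Rsad2 (0.52), Oasl1 (0.46), Ifih1 (0.45) and Cxcl10 (0.42), and over knockdown macrophages Isg15 (0.50), Rsad2 (0.46), Ifih1 (0.44), Oasl1 (0.42) and Ccl4 (0.37).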

How the data were processed

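Each library was deposited by the authors as a 10x matrix of UMI counts per gene and cell barcode, not normalized; per the file headers it was written by Cell Ranger 6.1.0, per the submitters' processing notes by 3.1.0. The aligner settings, genome build and annotation are not given in the sources used here. The deposited gene and barcode lists hold other, non-numeric labels only.

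Cells with at least 200 genes and at most 20% mitochondrial UMIs were kept. Doublets were scored with Scrublet (scanpy 1.11.5), and the highest-scoring cells were removed at 0.8% per 1000 cells, 1148 control and 1322 knockdown cells; Scrublet's own threshold would have marked 1114 and 2018. Counts were summed per gate (Python 3.11.15, numpy 2.4.6, scipy 1.17.1) and divided by the gate's total; genes were compared by identifier. Depth limits each value through its count: intervals are exact Poisson (counts) or Clopper-Pearson (shares) at 95%, and since 1 tumour was profiled per group they cover counting error only. A gene was called when at least 1.5-fold apart with at least 100 UMIs in 1 library. The scripts were tested on simulated counts.

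The members and lists were chosen with earlier results of these data known. The text names the 4 members and Ifit1bl1 and Ifit1bl2, at most 4 genes per pathway list with the largest ratios, Gfpt2, and the 5 genes most alike. Of the finer gates, 1 is not reported here. Alternatives covered doublets, gates, depth, scaling, cell weighting and the genes summed.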

Additional observations from a re-analysis of the deposited data

Results flagged for a closer look

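Several finer gates went against the direction of the class they were set beside, with a counting range that excluded 0 in the finer gate and in that class as gated; none of these differences was itself tested, and each rests on 1 library per group. In tumour-like cells with collagen UMIs the log2 ratio of knockdown over control was -0.18 for Ifit1 and -0.0629 for the family sum, against 0.18 and 0.29 in all tumour-like cells. These collagen-bearing cells numbered 1509 and 1813, with median depths of 14650 and 12122 UMIs.

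In dendritic cells the ratio was -1.34 for Ifit3 (135 and 54 UMIs), -2.24 for Ifit3b (28 and 6 UMIs) and -1.06 for the sum (295 and 143 UMIs), against 0.51, 0.91 and 0.70 in macrophages. An Ifit UMI was seen in 16 of 32 control and 21 of 29 knockdown dendritic cells, whose median depths were 8325 and 13411 UMIs. Thinned to 2000 UMIs, 37.5% of the control and 27.6% of the knockdown dendritic cells had one, with overlapping intervals. The control cell with the most Ifit3 UMIs held 38.5% of them, and the control cell with the most Ifit3b UMIs 46.4% of those; whether it is 1 cell was not examined.

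In NK cells Ifit2 had a ratio of -2.47 (27 and 4 UMIs in 45 and 40 cells) against 0.81 in T cells as gated. The other members did not share this direction. Ifit3 in NK cells had a ratio of 1.64 (0.05 to 3.35, from 9 and 23 UMIs). Ifit1, at -0.14, and Ifit3b, at 0.60, had ranges that hold 0. The NK family sum had a ratio of -0.09 (-0.77 to 0.57, from 87 and 67 UMIs). Among T cells of 1 gate, the set drawn like the NK cells, the Ifit2 ratio was 0.12 (-0.35 to 0.59), a range that holds 0. In the NK set 1 control cell held 37.0% of the 27 Ifit2 UMIs. Fewer than 50 cells per library stand behind the dendritic and NK values.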

How the results depend on the processing

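No paired analysis was possible because each group is 1 library and the labels carry no replicate numbers; for the same reason no library could be left out. Family ratios of knockdown over control stayed above 0 under each alternative to the gates, filters, weighting and scaling, from 0.56 to 0.84 in macrophages, from 0.31 to 1.19 in T cells and from 0.0896 to 0.29 in tumour-like cells. Single-member ratios of these 3 classes were above 0 under these alternatives in all cases except Ifit1 in tumour-like cells with 5000 to 20000 UMIs, at -0.0571. Narrower depth strata gave further values below 0: in T cells of 1000 to 2500 UMIs the family at -0.0719 (-0.38 to 0.24), Ifit3 at -0.40 (-1.09 to 0.27) and Ifit3b at -0.42 (-1.40 to 0.54), and Ifit1 in tumour-like cells of 5000 to 10000 and 10000 to 20000 UMIs at -0.0027 and -0.0892. Of the single-member ratios under the former alternatives 30 more moved beyond the counting range, 8 upward and 22 downward: 9 in T cells, from 0.12 (Ifit2, cells of 1 gate) to 1.59 (Ifit3b, 5000 to 20000 UMIs), with Ifit3 at 0.13 when cells weigh equally; 9 in macrophages, from 0.37 to 1.02; and 12 in tumour-like cells, from 0.0765 to 0.74. Family values, gene counts and shares beyond that range follow; where no cause is named, the cause was not tested.

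Without doublet removal the T cell ratio was 0.41, the macrophage to tumour-like level 0.29 (control) and 0.66 (knockdown), the T cell to tumour-like level 0.0776 (knockdown), and genes past 1.5-fold in either direction numbered 537 in macrophages, against 1282 with removal, and 156 in T cells, against 296. With Scrublet's own threshold the macrophage ratio was 0.79 and the macrophage to tumour-like level 0.93 (knockdown). With cells of more than 1 gate left out the T cell ratio was 0.34, and the T cell to tumour-like level changed sign to -0.0715 (knockdown, 0.25 as gated). With stricter gates the macrophage ratio was 0.76, the tumour-like ratio 0.21 and the macrophage to tumour-like level 0.34 (control). A T cell gate per 10000 UMIs turned the T cell to tumour-like level of the control library from -0.09 to 0.0936 and gave 0.45 in the knockdown library.

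Among cells of 5000 to 20000 UMIs fewer cells remain, with 132 control and 111 knockdown T cells. They were taken as gated, so cells of more than 1 gate were not left out, and the part of those cells was not tested. In this depth range the T cell ratio was 1.19 and the tumour-like ratio 0.0896. There the macrophage to tumour-like level was -0.0731 (control, 0.44 as gated) and 0.52 (knockdown), and the T cell to tumour-like level -1.02 and 0.0827. With every cell weighted equally the T cell ratio was 0.31, the tumour-like ratio 0.24, the macrophage to tumour-like level 0.89 (knockdown), and the T cell to tumour-like level 0.27 (control, a change of sign) and 0.34. TMM gave 0.56 and median of ratios 0.56 in macrophages, and both gave 0.22 in tumour-like cells. Without mitochondrial and ribosomal protein genes in the totals the tumour-like ratio was 0.25 and the macrophage to tumour-like level 0.26 and 0.69. Leaving out cells with marker RNA of the other class, chosen after seeing the data, gave a macrophage ratio of 0.84, macrophage to tumour-like levels of 0.20 and 0.74, and a T cell to tumour-like level of 0.0557 (knockdown).

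Counts of genes past the fold in macrophages, T cells and tumour-like cells were 3406, 1927 and 2094 with at least 10 UMIs, 5634, 4345 and 4430 with at least 1 UMI in each library, and 633, 39 and 106 at 2-fold, against 1282, 296 and 371. Thinning to 5000 UMIs, which keeps deeper cells, gave shares with an Ifit UMI of 51.5% and 70.9% in macrophages, 46.1% and 59.5% in T cells and 62.7% and 70.4% in tumour-like cells.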
